A study of Homo sapiens with 6 samples.

Results

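IGF2BP3 IR-PAR-CLIP clusters that lay just downstream of annotated genes are described here. A cluster was taken when it overlapped no GENCODE v44 gene on its own strand and began within 5 kb after the annotated end of a protein-coding gene on that strand. The rule used position only, and 3499 of the 244620 PARalyzer clusters of the IGF2BP3 libraries met it.

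HCT116 is a human colorectal carcinoma cell line, and the cells used carried Tet-OsTIR1-PURO in every library. All cultures received 100 µM 4-thiouridine (4sU) for 15 h before crosslinking with long-wave UV light, after which crosslinked uridines are read as T-to-C conversions. Endogenous IGF2BP3 was immunoprecipitated after RNase I at 0.05/0.05, 0.1/0.025 or 0.05/0.025 U/µL or after RNase T1 at 1/1 or 0.25/0.25 U/µL (in-lysate/on-beads), and a control IgG after RNase I at 0.1/0.025 U/µL, with 1 library per condition. The 2 libraries RNase I 0.05/0.05 and RNase T1 1/1 were electroeluted from the gel while the other 3 IGF2BP3 libraries came from crushed gel, so that digestion and gel extraction cannot be told apart between them. The antibody also recognises IGF2BP2 in part, there was no input RNA library, and a cluster's reads therefore reflect RNA abundance as well as binding. The clusters held 182448 to 2362467 reads per IGF2BP3 library and 324 reads in the IgG library, and values in CPM below are read counts scaled to these sums.

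IGF2BP3 is an RNA-binding protein of the IGF2 mRNA-binding family that is best known for contacts in the 3′UTRs of mature mRNAs, where it favours short CA-rich elements. The authors reported CAUU as the strongest such motif after RNase T1 and CAGU as the strongest after RNase I. An annotated gene ends where its farthest annotated transcript ends, which is not always a known cleavage and polyadenylation site. Upstream of a cleavage and polyadenylation site usually lies a hexamer, most often AAUAAA or AUUAAA, that is read by the cleavage machinery. RNA that continues past the annotated end can belong to a longer 3′UTR, to transcription that runs on before the polymerase is released, or to another transcript that starts nearby.

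Among the strongest downstream loci were 2 kinds, with no near-identical copy found or copied elsewhere, and examples of both are shown first. A locus here is a set of downstream clusters of the 5 libraries that share 1 or more bases on a strand, and it is named by its gene and by the distance in nt from the gene end to its nearest base. The first kind had no second place in the genome at 95% identity over 95% of the cluster length. Matches with gaps or to only a shorter part of a cluster were not counted. For 7 of these loci, 30 nt of GRCh38 around the mode of the most read-rich cluster are given 5′ to 3′, with each CATT (CAUU in RNA) in capitals where the window holds one. Windows were read for 14 of the 16 loci of this kind found in all 5 libraries. The 4 that hold a CATT, at ZNF800 +106, ALYREF +3518, KITLG +802 and PBDC1 +3175, are all shown, and the other 10 hold none.
ZNF800 +106, chr7:127346387-127346416, minus strand: gggccttactgggacaactgaaCATTttct
ALYREF +3518, chr17:81884213-81884242, minus strand: atgttctacataCATTtCATTtacctctca
EIF3J +1, chr15:44563221-44563250, plus strand: tacaggtaaacatcttcacaatatgtgagt
MAPRE1 +2839, chr20:32853244-32853273, plus strand: agccaccactccctgcttgatatcatactt
URB2 +4470, chr1:229664676-229664705, plus strand: agacacacacagaatactcttaatttatct
KITLG +802, chr12:88491883-88491912, minus strand: acaccacacttattcacccacCATTtcttt
PBDC1 +3175, chrX:76181492-76181521, plus strand: tctcagCATTtgcttgactgtagaagattt

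The second kind was nearly identical to an annotated exon or to mitochondrial RNA elsewhere. The pairs below show the window at the downstream locus and the same stretch of its copy, with positions that differ in capitals.
SLC25A30 +3407, chr13:45389880-45389909, minus strand: gtggtatcatcctaggtaagcttatttcag
RCN1 exon, chr11:32104917-32104946, plus strand: gtggtatcatcctaggtaagcttatttcag
GBP2 +2260, chr1:89103785-89103814, minus strand: gttccactaaaatttatttttcaaaaaatt
PTGES3 exon, chr12:56663976-56664005, minus strand: gttccactaaaatttatttttcaaaaaatt
RNF141 +1395, chr11:10510248-10510277, minus strand: tatgtagcttacTtccCcaaagcaatacac
MT-TF, chrM:580-609, plus strand: tatgtagcttacCtccTcaaagcaatacac
Over whole clusters, the SLC25A30 locus matched RCN1 at 190 of 190 nt, the GBP2 locus matched PTGES3 at 55 of 55 nt, and the RNF141 cluster differed from the mitochondrial genome at 2 of 42 positions. The printed SLC25A30 and GBP2 windows were identical to those of their copies.

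Downstream clusters were a small share of each IGF2BP3 library. They made up 1.59% of the clusters in RNase I 0.05/0.05 (Wilson 95% interval 1.51 to 1.68%, 1449 of 90999), 0.996% in RNase I 0.1/0.025 (0.907 to 1.09%, 432 of 43385) and 0.780% in RNase I 0.05/0.025 (0.695 to 0.875%, 287 of 36795). In the RNase T1 libraries they made up 2.05% at 1/1 (1.94 to 2.16%, 1226 of 59873) and 0.774% at 0.25/0.25 (0.640 to 0.936%, 105 of 13568). The share was thus highest in the 2 electroeluted libraries, which also held the most reads. These intervals cover counting error only, and 3 RNase I against 2 RNase T1 libraries cannot give a two-sided exact p below 0.2, so the enzymes were not tested against each other.

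By reads the shares were lower in the IGF2BP3 libraries. Downstream clusters held 18005 reads or 0.762% of cluster reads in RNase I 0.05/0.05, 4892 or 0.609% in RNase I 0.1/0.025, 3685 or 0.549% in RNase I 0.05/0.025, 14733 or 1.27% in RNase T1 1/1 and 1089 or 0.597% in RNase T1 0.25/0.25. The median downstream cluster held 7 or 8 reads in each of them, and the largest 447.

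Background binding was measured with IgG, where 3 of 25 clusters (12.0%, Wilson 95% interval 4.17 to 30%) and 31 of 324 reads (9.57%) met the same rule. Both shares were above those of the IGF2BP3 libraries, on few clusters. A cluster of 13 reads and another of 7 reads lay after RNF141, in mitochondrial-like sequence, and 1 of 11 reads lay after CCDC115, at the tRNA gene TRE-TTC1-1. The same places held clusters in all 5 IGF2BP3 libraries, with 36 to 222 reads, 13 to 73 reads and 8 to 89 reads. With so few IgG clusters, a lower level of background at other downstream loci was not detectable.

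Clusters were denser after gene ends than before gene starts in all libraries. Sequence free of same-strand genes within 5 kb amounted to 82.0 Mb after gene ends and 74.2 Mb before gene starts. Bases before a start that also lay within 5 kb after a gene end were counted as downstream only. Downstream windows held 17.7 clusters per Mb in RNase I 0.05/0.05, 5.27 in RNase I 0.1/0.025, 3.50 in RNase I 0.05/0.025, 15.0 in RNase T1 1/1 and 1.28 in RNase T1 0.25/0.25. Upstream windows held 3.10, 1.08, 1.12, 1.67 and 0.377 clusters per Mb in the same order. The ratio was 8.94 in RNase T1 1/1 and 5.70 in RNase I 0.05/0.05, against 4.89, 3.13 and 3.39 in RNase I 0.1/0.025, RNase I 0.05/0.025 and RNase T1 0.25/0.25. On the log2 scale the mean ratio was 2.27 ± 0.61 (SD, n = 5 libraries), higher downstream in 5 of 5 libraries, with an exact two-sided sign-flip permutation p of 0.0625 (adjusted p 0.075 over 6 comparisons). With 5 libraries this test cannot give a p below 0.0625, so that no comparison of this kind could pass 0.05. The mean log2 ratio was 3.97 when clusters with a near-identical genomic copy were left out of both windows, and 1.57 when only clusters of at least 10 reads were counted.

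The opposite strand of the downstream windows gave a second background. It was taken where it held no gene and was not itself within 5 kb after a gene end, which left 59.7 Mb. It held 2.11, 0.737, 0.971, 1.14 and 0.234 clusters per Mb in RNase I 0.05/0.05, 0.1/0.025, 0.05/0.025, RNase T1 1/1 and 0.25/0.25. The downstream strand held 3.60 times (RNase I 0.05/0.025) to 13.1 times (RNase T1 1/1) as many. The plot of cluster density by distance shows both sides of the genes.

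**Figure D1:**
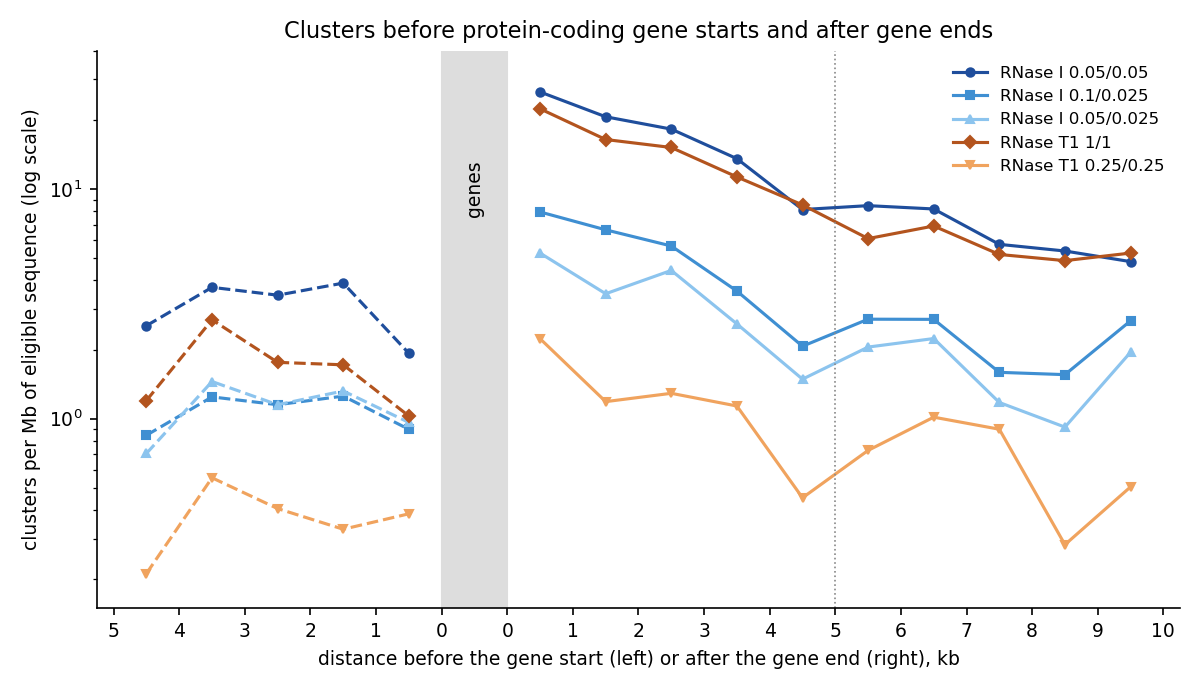
Clusters per Mb of sequence free of same-strand genes (log scale) in 1-kb bins, before the starts of protein-coding genes (dashed, left) and after their ends (solid, right), for the 5 IGF2BP3 libraries; the dotted line marks the 5-kb limit of the rule. In RNase I 0.05/0.05 the density was 26.5 per Mb in the first kb after the end and 8.14 in the fifth, and no bin before the gene start exceeded 3.89.

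Density declined with distance from the gene end. The first kb held 26.5, 7.94 and 5.26 clusters per Mb in RNase I 0.05/0.05, 0.1/0.025 and 0.05/0.025 and 22.3 and 2.23 in RNase T1 1/1 and 0.25/0.25. The fifth kb held 8.14, 2.07, 1.49, 8.53 and 0.452 clusters per Mb in the same order. The first kb was denser 3.25, 3.84, 3.54, 2.62 and 4.93 times, with a mean log2 ratio of 1.83 ± 0.33 (SD, n = 5 libraries) and an exact two-sided permutation p of 0.0625 (adjusted p 0.075), which is the smallest it can be. The median distance was 1684 to 1944 nt, and 4.14 to 6.27% of the downstream clusters began within 100 nt of the gene end. The next 5 kb beyond the limit of the rule held 6.56, 2.25, 1.67, 5.68 and 0.691 clusters per Mb, which was below the fifth kb in RNase I 0.05/0.05 and RNase T1 1/1 and above it in the other 3 libraries.

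The annotation around the clusters set limits on what can be assigned to the upstream gene. Of the 3499 clusters, 999 (28.6%) overlapped a gene on the opposite strand, 275 lay nearer to the end of a gene that is not protein-coding, 232 lay within 1 kb before the start of another gene on the strand, and 60 lay on the mitochondrial genome. RefSeq gave coordinates for the upstream gene of 3388 clusters, and for 322 of these (9.50%) the RefSeq gene of the same name reached the cluster. ZNF800 was such a gene.

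Merging across libraries gave 2170 loci after 646 genes. Of these loci, 1505 had a cluster in 1 library, 405 in 2, 151 in 3, 69 in 4 and 40 in all 5. Clusters of both enzymes met at 487 loci (22.4%), whereas 1031 were seen only with RNase I and 652 only with RNase T1. In 40 loci all 3 RNase I libraries and neither RNase T1 library had a cluster, and the reverse pattern, both RNase T1 libraries and no RNase I library, was seen at 7 loci. The same split was not counted over all clusters. Whether it is particular to downstream loci was therefore not tested. The 7 loci needed a cluster in RNase T1 0.25/0.25, which had the fewest downstream clusters (105). Differences in depth were not separated from those between the enzymes.

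The share of clusters found again in all other libraries was set against that of clusters at large. Among all clusters of RNase I 0.05/0.05, 7.77% overlapped a cluster in each of the other 4 IGF2BP3 libraries, and the downstream share was 2.90% (42 clusters). The background was 18.0% in RNase I 0.1/0.025 and 21.5% in RNase I 0.05/0.025, against 9.95% (43) and 15.3% (44) of the downstream clusters. In RNase T1 1/1 it was 15.9% against 4.00% (49), and in RNase T1 0.25/0.25 it was 70.0% against 47.6% (50). The downstream share lay below the background in 5 of 5 libraries.

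The criterion for targets in this study, a level above 10 CPM together with over 0.5 conversions for each read, was met below the background in 5 of 5 libraries too. It was met by 17.6% of all clusters in RNase I 0.05/0.05, 39.1% in RNase I 0.1/0.025, 45.7% in RNase I 0.05/0.025, 21.3% in RNase T1 1/1 and 59.3% in RNase T1 0.25/0.25. The downstream clusters that met it were 85 (5.87%), 95 (22.0%), 94 (32.8%), 169 (13.8%) and 60 (57.1%). The difference from the background was smallest in RNase T1 0.25/0.25, the library with the fewest clusters. A level of 10 CPM stands for a different read count in each library. The cluster reads to which CPM was scaled numbered 182448 in RNase T1 0.25/0.25 and 2362467 in RNase I 0.05/0.05. The CPM part of the criterion was therefore weakest in the shallowest library, and its effect was not separated from that of the conversion part.

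Near-identical copies were most common among the loci that recurred most. A locus counted as having a copy when any of its clusters had one. Loci in more libraries hold more clusters, so the share can rise with recurrence through this rule, and its effect was not tested. Of the loci with clusters in all 5 libraries, 24 of 40 had a copy (60.0%, Wilson 95% interval 44.6 to 73.7%), compared with 184 of 1505 loci seen in 1 library (12.2%, 10.7 to 14.0%). Loci seen in 2, 3 and 4 libraries had a copy in 18.0%, 26.5% and 21.7% of cases. The 24 comprised 12 copies of an annotated exon, 5 of mitochondrial RNA, 3 loci over tRNA genes and 4 others.

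**Figure D2:**
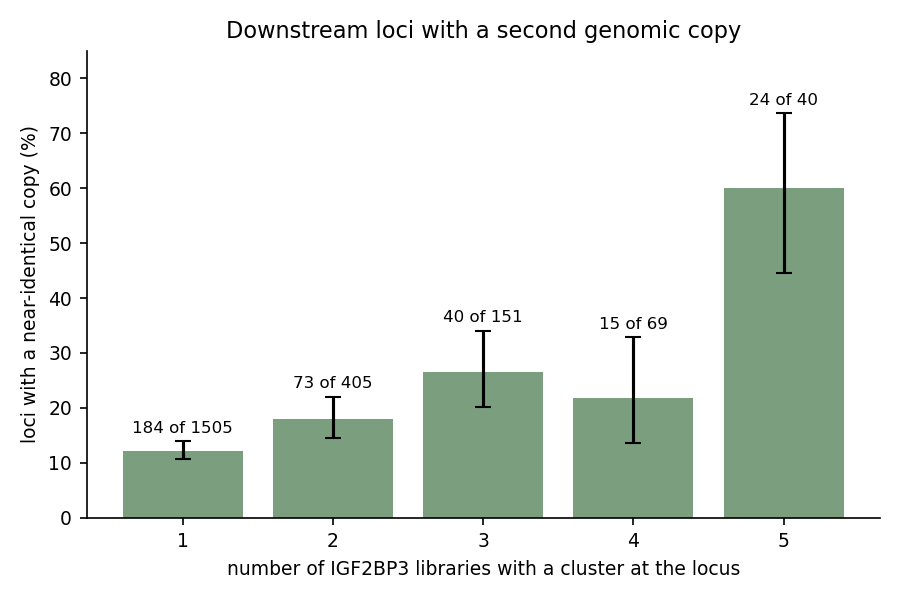
Share of downstream loci with a second place in the genome at 95% identity or more (bars), by the number of IGF2BP3 libraries with a cluster at the locus; error bars are Wilson 95% intervals for counting error and labels give the loci with a copy of all loci. A locus was counted when any of its clusters had a copy. The share was 60.0% among the 40 loci found in all 5 libraries and 12.2% among the 1505 found in 1.

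By cluster, the share with a copy was 13.7% in RNase I 0.05/0.05, 20.6% in RNase I 0.1/0.025, 28.2% in RNase I 0.05/0.025, 11.9% in RNase T1 1/1 and 41.9% in RNase T1 0.25/0.25. It was lowest in the electroeluted libraries. These clusters carried more reads than the rest, 24.0 against 10.6 on average in RNase I 0.05/0.05 and 17.7 against 11.3 in RNase T1 1/1, so that they held 26.4, 39.0, 51.6, 17.5 and 58.0% of downstream reads. Among 3′UTR clusters a copy was found for 8.07, 10.4, 11.1, 12.1 and 16.2% in the same order, and among the other clusters outside genes for 79.4, 87.4, 87.0, 70.9 and 88.5%. The downstream values lay nearer to those of 3′UTR clusters than to those of the remaining clusters outside genes.

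The 5 recurrent copies of mitochondrial RNA lay after RNF141, a ring finger protein gene on chromosome 11, and included the 2 loci with the highest mean CPM. RNF141 +2370 held 447, 156 and 198 reads in RNase I 0.05/0.05, 0.1/0.025 and 0.05/0.025 and 96 and 38 reads in RNase T1 1/1 and 0.25/0.25, with a mean of 194 CPM. The matching mitochondrial stretch overlapped the tRNA gene MT-TV and the rRNA genes MT-RNR1 and MT-RNR2. Clusters over this stretch, which reached beyond it, held 2401, 582, 929, 376 and 159 reads. RNF141 +2219 held 222, 173, 182, 36 and 62 reads, with 0.03 to 0.17 conversion events per read. The median downstream cluster had 0.571 to 0.625. All 11 loci after RNF141 had a copy, and together they held 1605 of the 18005 downstream reads of RNase I 0.05/0.05.

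Exon copies came next. The loci GBP2 +2260 and +1951 matched PTGES3, the mRNA of the HSP90 co-chaperone p23, while GBP2 itself, an interferon-induced GTPase gene, had no 3′UTR cluster in any library. GBP2 +2260 held 227, 92, 87, 344 and 52 reads in RNase I 0.05/0.05, 0.1/0.025, 0.05/0.025, RNase T1 1/1 and 0.25/0.25. Clusters over the matching stretch of the PTGES3 exon held 734, 355, 153, 354 and 69 reads. The locus SLC25A30 +3407 held 127, 46, 36, 33 and 17 reads, and its copy in RCN1, the gene of the calcium-binding protein reticulocalbin-1, held 128, 49, 46, 33 and 17 reads. In the RNase T1 libraries the counts at both places were the same.

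LIPT2 +4975, at the outer edge of the window, matched an exon of MDM2 with 1 difference in 82 nt. It held 203, 77, 125, 39 and 8 reads. Clusters over the matching stretch of MDM2 alone held 1115, 573, 404, 452 and 115. Of the other recurrent loci, HAUS2 +2565 matched MYL12B, SETSIP +108 matched SET, YAE1 +21 matched AKIRIN1, RETSAT +823 matched PEBP1, ANP32D +312 matched ANP32A and ZNF624 +3933 matched SRSF6. How reads that match several places were assigned is not given in the sources used here.

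The 3 loci over RefSeq tRNA genes were also seen in all 5 libraries. ATP5PD +4359 lay over TRR-CCT2-1 and held 275, 88, 123, 58 and 23 reads in RNase I 0.05/0.05, 0.1/0.025, 0.05/0.025, RNase T1 1/1 and 0.25/0.25, a mean of 117 CPM. CCDC115 +733 lay over TRE-TTC1-1 and PER1 +1536 over TRS-CGA1-1. ATP5PD, a subunit gene of the mitochondrial ATP synthase, had no 3′UTR cluster in any of the 5 libraries.

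The remaining 16 loci in all 5 libraries had no copy and overlapped no tRNA gene. They lay after 13 genes. Mean CPM ranged from 14.2 at TIMM23 +416 to 134 at ZNF800 +106, and the plot of recurrent loci gives the level in each library.

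**Figure D3:**
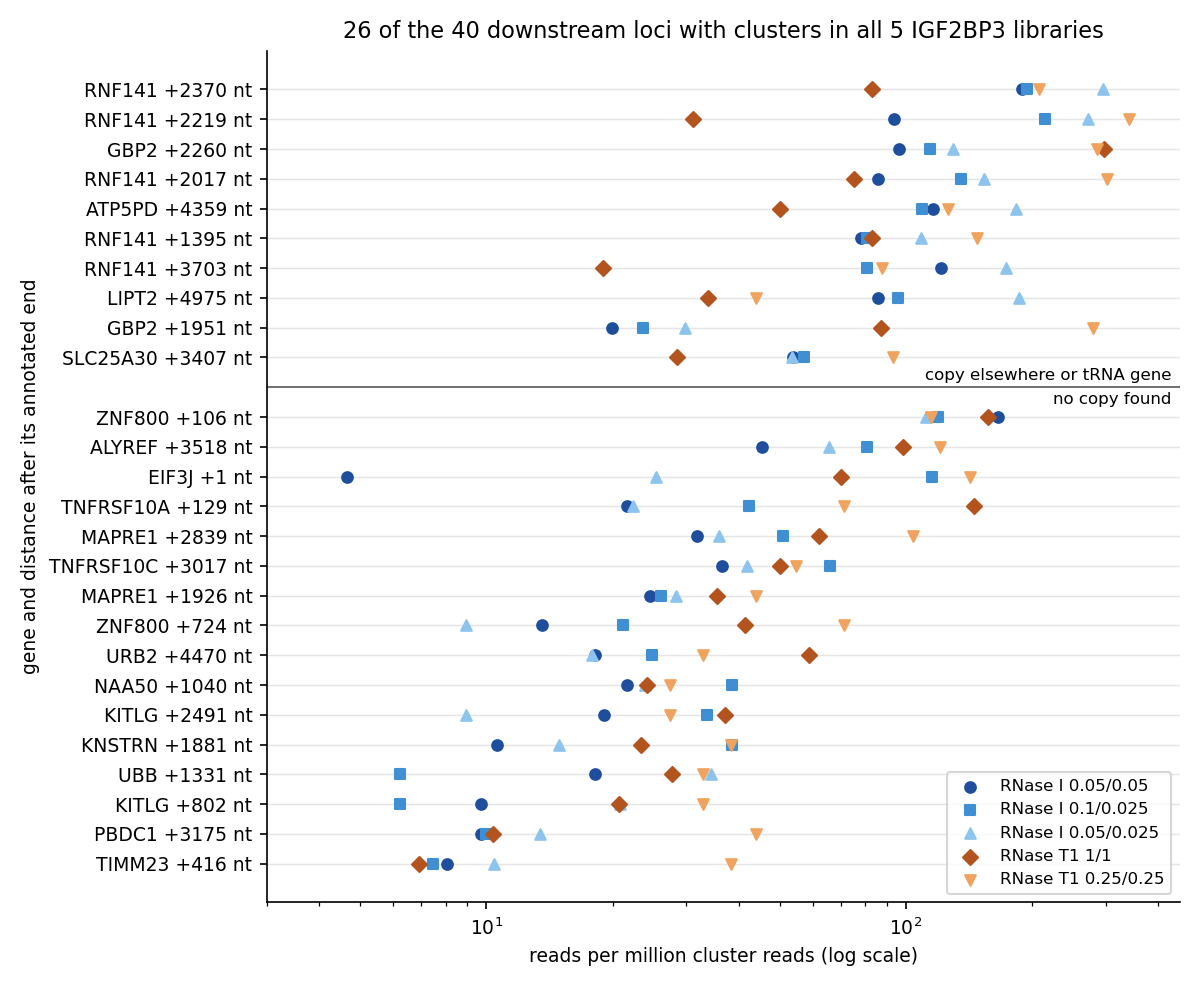
CPM relative to cluster reads (log scale) in each IGF2BP3 library at 26 of the 40 downstream loci with clusters in all 5 libraries: those with a copy or over a tRNA gene that rank among the 15 highest by mean CPM (top) and all 16 with neither (bottom). ZNF800 +106 stayed between 112 and 166 CPM, whereas EIF3J +1 ranged from 4.66 to 143 CPM.

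ZNF800, which encodes a C2H2 zinc finger protein, had the most read-rich of these loci. ZNF800 +106, whose most read-rich cluster spanned 615 nt, held 392, 96 and 75 reads in RNase I 0.05/0.05, 0.1/0.025 and 0.05/0.025 and 182 and 21 reads in RNase T1 1/1 and 0.25/0.25. The levels of 166, 119, 112, 157 and 115 CPM had the smallest ratio of highest to lowest among the 16 loci. Conversion events per read were 0.64, 0.59 and 0.55 with RNase I and 0.36 and 0.43 with RNase T1. A second locus at +724 held 32, 17, 6, 48 and 13 reads, and ZNF800 +2 held 22, 7, 5 and 19 reads in 4 libraries. The ZNF800 gene has no AAUAAA or AUUAAA in its last 50 nt in GENCODE v44, and the RefSeq gene covers these 3 loci.

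ALYREF encodes an mRNA export adaptor, and its downstream clusters reached almost to the 5-kb limit. ALYREF +3518 held 107, 65, 44, 114 and 22 reads in RNase I 0.05/0.05, 0.1/0.025, 0.05/0.025, RNase T1 1/1 and 0.25/0.25, or 45.3 to 121 CPM. Its conversion events per read were 0.66, 0.63, 0.59, 0.46 and 0.59. In the sequence above, 2 CAUU tetramers lie within the window of this locus. ALYREF had 19 downstream loci, 206 to 4904 nt after its end, of which 10 had clusters in at least 2 libraries.

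MAPRE1, the gene of the microtubule plus-end protein EB1, had 2 such loci. MAPRE1 +2839 held 75, 41, 24, 72 and 19 reads, and MAPRE1 +1926 held 58, 21, 19, 41 and 8 reads in the same order of libraries. Both overlapped a gene on the opposite strand, as did EIF3J +1 and TNFRSF10A +129 below. KITLG, which encodes the KIT ligand, also had 2, KITLG +2491 with 45, 27, 6, 43 and 5 reads and KITLG +802 with 23, 5, 14, 24 and 6 reads.

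URB2 +4470 was the farthest locus with no copy that was found in all 5 libraries. It held 43, 20, 12, 68 and 6 reads, or 17.9 to 58.8 CPM, and URB2 encodes a ribosome biogenesis factor. In RNase I 0.05/0.05 the nearest downstream cluster of URB2 began 2652 nt after the gene end, as the map of clusters shows. Of the loci found in at least 2 libraries, the nearest to a gene end was EIF3J +1, after the gene of a subunit of the initiation factor eIF3. It began at the first base after the end and held 11, 93, 17, 81 and 26 reads, so that its level was lowest in RNase I 0.05/0.05 at 4.66 CPM and highest in RNase T1 0.25/0.25 at 143 CPM. KITLG +9 was seen with 6 reads in RNase I 0.05/0.05 and 12 reads in RNase I 0.05/0.025 only.

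TNFRSF10A, a death receptor gene, and TNFRSF10C, the gene of a decoy receptor for the same ligand, lie on opposite strands of chromosome 8 and contributed 1 locus each. TNFRSF10A +129 held 51, 34, 15, 168 and 13 reads and was among the 3 most read-rich downstream loci of RNase T1 1/1. TNFRSF10C +3017 held 86, 53, 28, 58 and 10 reads. The remaining loci with no copy in all 5 libraries were NAA50 +1040, KNSTRN +1881, UBB +1331, PBDC1 +3175 and TIMM23 +416, with 5 to 51 reads per library. Just inside the 5-kb limit, again among loci found in at least 2 libraries, GNA12 +4993 was seen in RNase I 0.05/0.05 with 18 reads and in RNase T1 1/1 with 21, and ZNF460 +4960 held 4 reads in RNase I 0.05/0.05 and 5 in RNase I 0.05/0.025.

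**Figure D4:**
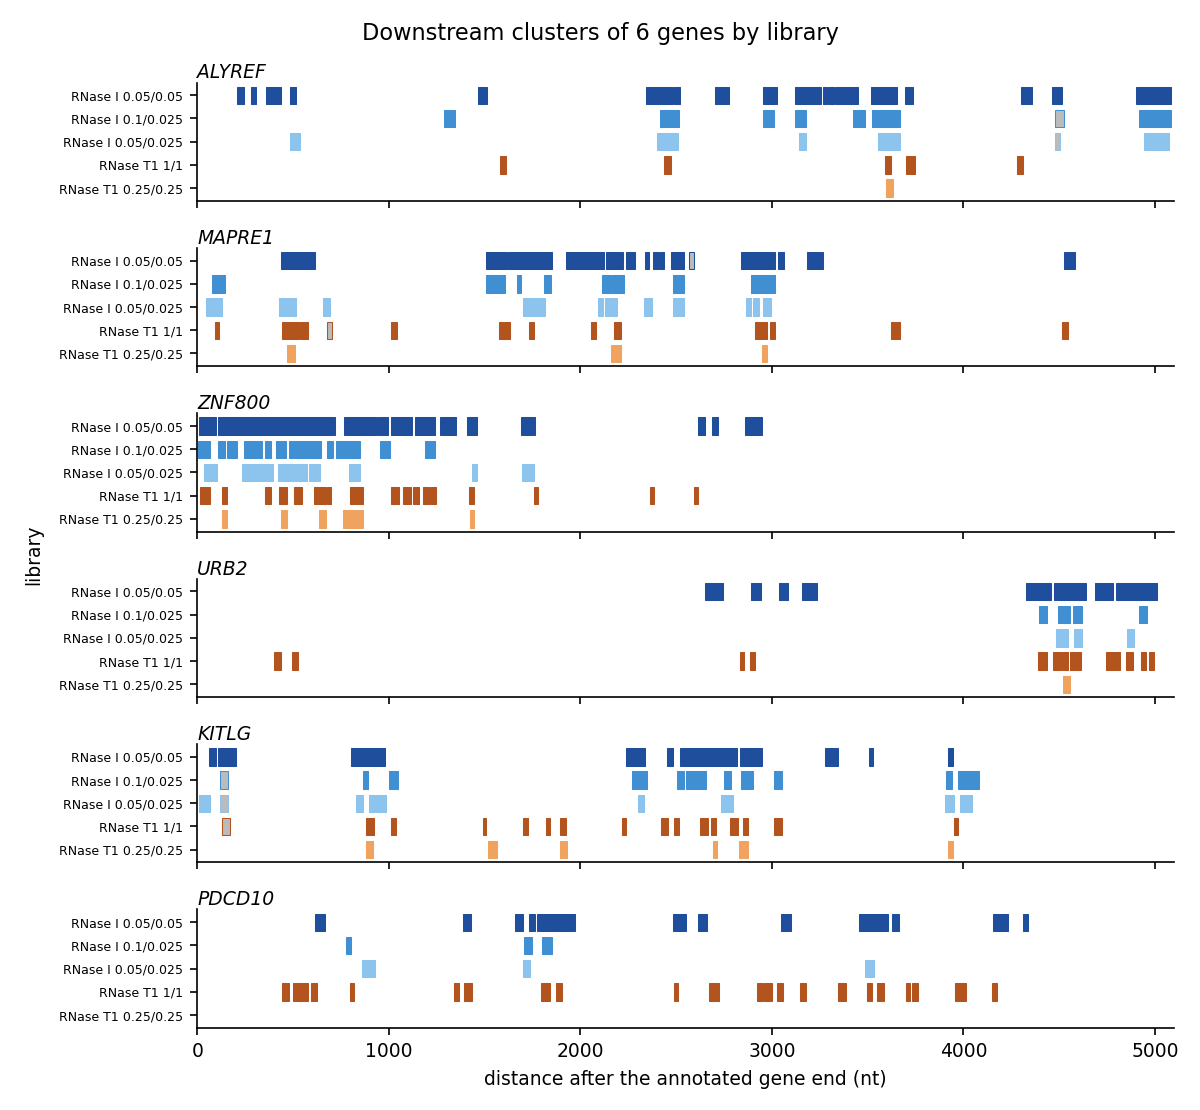
Downstream clusters of ALYREF, MAPRE1, ZNF800, URB2, KITLG and PDCD10 by library, as bars from their first to their last base at the distance after the annotated gene end (nt); clusters with a near-identical copy are filled grey. Clusters of ZNF800 began 2 nt after the end and those of PDCD10 442 nt after it, and PDCD10 had no cluster in RNase T1 0.25/0.25.

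Some genes carried many separate loci. ZNF460 had 27, PDCD10 25, NEK6 24, PANX1 23 and RGP1 21, and 51 genes had at least 10, while 286 genes had 1. ZNF460 held 330, 31 and 29 downstream reads in RNase I 0.05/0.05, 0.1/0.025 and 0.05/0.025 and 312 and 21 in RNase T1 1/1 and 0.25/0.25. PDCD10, a gene of vascular integrity and apoptosis signalling, held 111, 16, 16, 244 and 0. For NEK6, a mitotic kinase gene, the counts were 361, 9, 18, 90 and 7, and for the channel gene PANX1 they were 187, 33, 23, 187 and 0. RGP1, a membrane trafficking factor gene, had 143, 7, 5, 144 and 0. In each of these genes the reads lay mostly in the 2 electroeluted libraries, which were also the deepest.

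To set downstream reads against the 3′UTR of the same gene, 218 genes with a locus that had no copy and was seen in at least 2 libraries were taken, with all of their loci that had no copy. Downstream clusters held 11.0% of the downstream and 3′UTR cluster reads of these genes in RNase I 0.05/0.05, 7.80% in RNase I 0.1/0.025, 5.38% in RNase I 0.05/0.025, 18.4% in RNase T1 1/1 and 4.84% in RNase T1 0.25/0.25. Of the 218 genes, 214, 135, 98, 197 and 38 had downstream reads in the respective library. More downstream than 3′UTR reads were counted for 65, 46, 32, 80 and 17 genes. Among these, 26, 30, 23, 36 and 14 had no reads in 3′UTR clusters of that library. In 7 genes downstream reads exceeded 3′UTR reads in all 5 libraries. These were ZNF800, MRPS30, URB2, RPS3A, TNFRSF10C, ALYREF and CDCA2.

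ALYREF had 329, 142, 104, 156 and 22 downstream reads against 20, 11, 7, 20 and 0 reads in 3′UTR clusters. MRPS30, a mitochondrial ribosomal protein gene, held 232, 25, 12, 329 and 9 reads against 6, 5, 0, 11 and 0. ZNF800 held 576, 133, 99, 370 and 39 against 137, 43, 38, 157 and 8. ZNF800 had reads on both sides of its annotated end in each library, whereas 3′UTR clusters were missing for ALYREF in RNase T1 0.25/0.25 and for MRPS30 there and in RNase I 0.05/0.025. RPS3A, a ribosomal protein gene, held 50, 12, 10, 46 and 5 downstream reads against 9, 0, 0, 0 and 0. CDCA2, which encodes a chromatin-bound phosphatase subunit of mitosis, held 10, 57, 25, 9 and 17 against 0, 20, 0, 0 and 0. At the other end, KITLG held 130, 85, 48, 225 and 33 reads downstream against 10925, 4440, 3904, 5004 and 1395 in its 3′UTR.

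**Figure D5:**
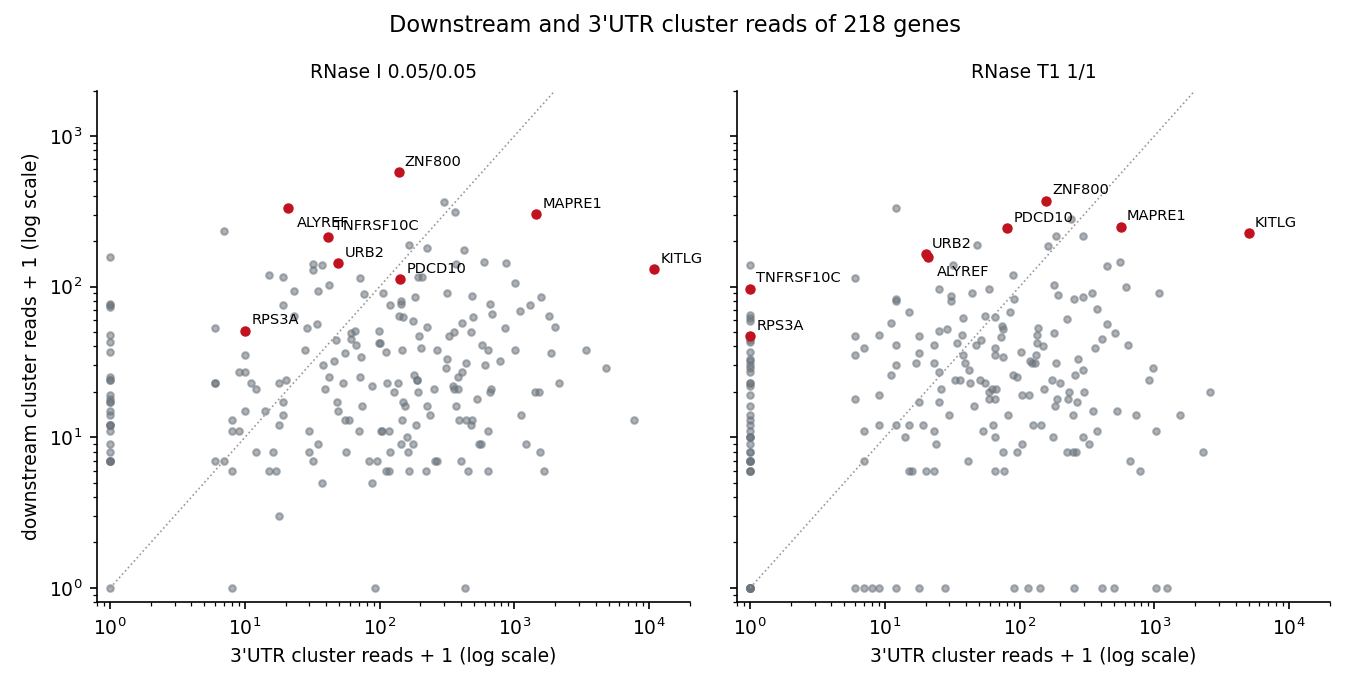
Reads in downstream clusters with no copy against reads in 3′UTR clusters (both plus 1, log scales) for 218 genes in RNase I 0.05/0.05 (left) and RNase T1 1/1 (right); the dotted line marks equal counts and 8 genes are named in red. Of the 218 genes, 65 lay above the line in RNase I 0.05/0.05 and 80 in RNase T1 1/1, of which 26 and 36 had no 3′UTR cluster reads.

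Poly(A) signals were looked for at the annotated gene ends. AAUAAA or AUUAAA was present in the last 50 nt of 414 of 640 genes with a downstream cluster outside the mitochondrial genome (64.7%, Wilson 95% interval 60.9 to 68.3%). Among all genes with a 3′UTR cluster it was present in 6642 of 8812 (75.4%, 74.5 to 76.3%), and in 78.0% of those that had no downstream cluster and no gene in the next kb. AAUAAA alone was found in 48.1% of the genes with a downstream cluster and 61.1% of the genes with a 3′UTR cluster. Genes with a locus that had no copy and was seen in at least 2 libraries had a signal in 62.8% of cases (56.3 to 69.0%). The genes with a downstream cluster were not restricted to those with a 3′UTR cluster. Over all protein-coding genes the share with a signal was 72.1%. No test was run, since genes were pooled over the libraries.

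Most of the upstream genes also had clusters within their annotated 3′UTR. A 3′UTR cluster was present in at least 1 of the 5 libraries for 546 of the genes with a downstream cluster (85.3%). A cluster lay in the last 500 nt of the gene for 65.0% (61.2 to 68.6%) of genes with downstream clusters, and for 60.3% (59.3 to 61.3%) of all genes with a 3′UTR cluster. The bases differ, since the former set includes genes with no 3′UTR cluster.

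Downstream clusters were shorter and held fewer reads than 3′UTR clusters in 5 of 5 libraries. Median lengths were 48, 48 and 45 nt against 58, 56 and 56 nt in RNase I 0.05/0.05, 0.1/0.025 and 0.05/0.025, and 30 and 34 nt against 34 and 38 nt in RNase T1 1/1 and 0.25/0.25. The difference was -7.4 ± 3.3 nt (SD, n = 5 libraries) with an exact two-sided permutation p of 0.0625 (adjusted p 0.075), and -13.2 nt among clusters of at least 10 reads. Mean reads per cluster were 12.4, 11.3, 12.8, 12.0 and 10.4 downstream and 29.4, 19.6, 19.0, 20.5 and 13.4 in 3′UTRs. The mean log2 ratio was -0.75 ± 0.33, negative in 5 of 5 libraries, with an exact permutation p of 0.0625 (adjusted p 0.075).

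Conversion frequencies of the 2 kinds of cluster differed by less than the spread between libraries. The median was 0.625, 0.625, 0.600, 0.571 and 0.591 conversion events per read downstream and 0.633, 0.667, 0.607, 0.545 and 0.583 in 3′UTR clusters. The mean difference of -0.0047 ± 0.025 (SD, n = 5 libraries) gave an exact two-sided permutation p of 0.688 (adjusted p 0.688), with values from -0.042 to 0.026 per library. Among clusters of at least 10 reads the mean difference was -0.048, with -0.107 to 0 per library and an exact permutation p of 0.125. Without clusters that had a genomic copy the sign turned, to 0.0137.

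CAUU was denser in downstream clusters than in 3′UTR clusters in each library. It occurred 10.3, 12.3 and 11.7 times per kb of cluster sequence downstream against 7.87, 8.85 and 8.74 in RNase I 0.05/0.05, 0.1/0.025 and 0.05/0.025, and 15.4 and 12.4 against 11.3 and 11.8 in RNase T1 1/1 and 0.25/0.25. The mean log2 ratio was 0.36 ± 0.17 (SD, n = 5 libraries), positive in 5 of 5, with an exact two-sided permutation p of 0.0625 (adjusted p 0.075). The share of clusters with at least 1 CAUU did not follow in each library. It was 42.9, 45.4 and 44.3% downstream against 41.8, 43.3 and 43.0% in 3′UTRs with RNase I, 40.6 against 36.1% in RNase T1 1/1, and lower downstream in RNase T1 0.25/0.25, at 36.2 against 40.9%. Downstream clusters were shorter and, in each library, richer in U and C. U made up 33.6, 33.9, 35.2, 36.9 and 36.2% of downstream bases in the same order of libraries. In 3′UTR clusters it made up 31.9, 32.7, 33.0, 35.1 and 35.3%. C made up 24.7, 25.0, 23.9, 25.5 and 25.5% downstream against 23.6, 23.8, 23.5, 24.0 and 24.2%. Whether the differences in length and base content bear on either measure was not tested. CAUA was also denser in 5 of 5 libraries, 5.39, 5.68, 5.00, 9.14 and 6.75 per kb against 4.15, 4.61, 4.45, 6.22 and 6.29, and UUAC in 4 of 5. ACAC was denser in 4 libraries and less dense in RNase T1 0.25/0.25. GGGG was less dense in 5 of 5 libraries, 1.59, 1.24, 1.01, 0.739 and 1.08 per kb against 2.72, 2.13, 1.95, 1.93 and 1.22.

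The enzymes left their usual ends on downstream clusters. The last base was G in 94.5% of downstream clusters in RNase T1 1/1 and 92.4% in RNase T1 0.25/0.25, and in 10.0, 10.4 and 13.6% in RNase I 0.05/0.05, 0.1/0.025 and 0.05/0.025. RNase T1 cleaves after G, and the values for all clusters were 94.7 and 91.7% and 13.0, 12.2 and 11.8%. CAGU occurred 6.33, 6.96 and 6.55 times per kb downstream against 6.11, 6.52 and 6.36 in 3′UTR clusters in the RNase I libraries. In RNase T1 1/1 and 0.25/0.25 it occurred 1.97 and 4.05 times against 3.36 and 4.84, so that it was lower downstream in both RNase T1 libraries and slightly higher in the RNase I libraries. G made up 15.1 to 16.2% of downstream cluster bases with RNase I, 8.97% in RNase T1 1/1 and 11.8% in RNase T1 0.25/0.25, each below the 3′UTR clusters of the same library, which had 17.9 to 19.0%, 13.3% and 14.2%.

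Gene groups were counted among the genes that had a 3′UTR cluster in any of the 5 libraries, of which 546 of 8812 (6.20%) also had a downstream cluster. Among zinc finger genes, which mostly encode DNA-binding repressors, it was 37 of 251 (14.7%, Wilson 95% interval 10.9 to 19.7%), and 16 of these had a locus with no copy in at least 2 libraries, ZNF800, ZNF460 and ZNF706 among them. Among cytosolic ribosomal protein genes it was 9 of 70 (12.9%, 6.91 to 22.7%), with RPS3A, RPS6, RPS13, RPS20 and RPL30 having a recurrent locus with no copy. Both shares lay above that of all genes, though the interval for ribosomal protein genes came close to it. A locus with no copy in at least 2 libraries was found for 198 of the 8812 genes (2.25%). The zinc finger share was 6.37% and the ribosomal protein share 7.14%, the latter on 5 genes.

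The other groups were nearer to the background. A downstream cluster was found for 6 of 80 nuclear-encoded respiratory chain genes (7.50%), among them NDUFB2 and SDHC, for 8 of 162 solute carrier genes (4.94%), SLC25A30 included, and for 5 of 52 RAB GTPase genes (9.62%), RAB14 included. Of 21 genes of 3′ end processing 2 had one, CSTF2, a subunit gene of the cleavage stimulation factor, and SCAF4, which encodes a factor that prevents early polyadenylation. Replication-dependent histone genes, whose transcripts end in a stem-loop rather than a poly(A) tail, had downstream clusters in 0 of 19 cases, which allows a share of up to 15.8%. These lists were chosen with earlier results known, and nothing was tested on them.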

How the data were processed

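The deposited tables list PARalyzer clusters per library, with position, strand, sequence, read count and the count of T-to-C conversion events. The authors made these counts from reads trimmed with Trimmomatic v0.30, aligned to GRCh38.p13 with Bowtie v0.12.7 and deduplicated with UMI-tools v1.1.1. The mode score, a fraction the authors deposited for each cluster, was not used.

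Clusters were annotated with GENCODE v44 genes on the same strand. Second genomic places were sought with BLASTN 2.17.0 (word size 16, at least 95% identity over at least 95% of the cluster). CPM was computed relative to the cluster reads of the library. Paired library values were compared by an exact two-sided sign-flip permutation test over 5 libraries, with Benjamini-Hochberg adjustment over 6 comparisons, tested on simulated data. Shares have Wilson 95% intervals for counting error.

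The clusters, gene lists and tests were chosen with earlier results of these data known. Named were the 15 loci of highest mean CPM among those in all 5 libraries, the 3 most read-rich of RNase I 0.05/0.05 and of RNase T1 1/1, the 5 genes with most loci, the 3 farthest loci in all 5 libraries, the 3 nearest to the gene end and the 3 just inside the limit among loci in at least 2 libraries, and the IgG clusters. The other recurrent loci, MRPS30, RPS3A, CDCA2 and the members named from gene lists were chosen after their values were seen.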

Additional observations from a re-analysis of the deposited data

How the results depend on the processing

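The share of clusters downstream of genes over the 5 IGF2BP3 libraries was 1.43%. It was 0.793% with a 2-kb and 1.93% with a 10-kb window. Some alternatives took clusters out of the downstream set only, with all 244620 clusters still the base, so that the share could only fall. These gave 1.02% without clusters opposite a gene and 1.32% where the nearest end had to be protein-coding. They gave 1.34% without clusters within 1 kb before a gene. Without genomic copies, an alternative chosen after seeing the data, the share was 1.20% on the same base. Where the filter applied to all clusters, it was 0.989% among those of at least 10 reads (1151 of 116359). It was 0.712% among those over 10 CPM and 0.5 conversion events per read (503 of 70616). Leaving out 1 library gave 1.23 to 1.55%. The cause was not tested.

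The difference in conversion events per read was -0.048 among clusters of at least 10 reads, and turned to 0.0137 without genomic copies and to 0.0045 without RNase I 0.1/0.025, within a range of -0.012 to 0.0045 over libraries left out. The log2 ratios kept their sign with each library left out, at 2.05 to 2.43 for downstream against upstream windows, 1.71 to 1.94 for the first against the fifth kb, -0.84 to -0.62 for reads per cluster and 0.33 to 0.43 for CAUU, as did the length difference at -8.25 to -6.5 nt.

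Leaving out soft-masked repeats was not run, as the genome used here carries no masking. Downstream and reference values were paired within each library. No paired analysis was possible because of the single library per condition where conditions are set side by side. With 1 library per condition and 182448 cluster reads in the shallowest, the absence of a cluster in a library is not evidence of absence of binding.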
